A study of Junonia coenia with 24 samples.

Results

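Open chromatin in hindwings of the buckeye butterfly Junonia coenia was compared between pupae labelled 6 d and pupae labelled 72 h after pupation. The comparison comprises 6 of the 24 ATAC-seq libraries of the study, 3 per group, chosen by their labelled tissue and developmental stage. It covers 258640 of the 488675 hindwing intervals listed, those with enough reads to pass a filter on low counts. Whole wing tissue of animals raised at about 27 °C was used in every group, and no treatment or genotype is given. The titles of the libraries labelled 6 d say day 7, and the labels do not say whether replicates came from separate animals or pools. The other hindwing groups, used here for their levels and for the estimate of spread, are the 5th larval instar and the prepupa (3 libraries each), and forewings were sampled at the same 4 labelled stages.

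ATAC-seq uses a transposase that cuts and tags accessible DNA, and reads pile up where nucleosomes are moved aside at promoters, enhancers and other regulatory DNA. A butterfly wing grows as an imaginal disc in the larva, everts at pupation and then forms, within a flat epithelium, the scale and socket cells that later carry pigment and structure. Steroid hormone pulses, read by the ecdysone receptor EcR, time these steps in insects, and the study's title names EcR and the transcription factor spineless as its subjects. Because whole wings were sampled, a shift in the mix of cell types and a change of chromatin within cells cannot be told apart. The contigs come without gene names or sequence, so intervals are given by contig, start and end (counted from 1), their genome build is unstated in the labels, and the tissue could not be checked against marker genes.

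The stage names of the wings did not line up, which bears on every result below. Each hindwing library labelled 6 d was closest to the forewing library labelled prepupa of the same replicate number (Spearman 0.888, 0.900 and 0.872 for replicates 1, 2 and 3). Each hindwing library labelled 72 h was closest to the forewing library labelled 6 d of the same number (0.895, 0.878 and 0.867). These correlations are across 127816 intervals matched between the wings, which are no replicates. Stage names are used as the labels give them and no library was moved. "Rose" and "opened" therefore mean higher in the libraries labelled 6 d than in those labelled 72 h, and the order of these groups in development is not established. Total counts were 7040817 to 9017148 in libraries labelled 6 d and 8183863 to 10652323 in libraries labelled 72 h. Scaled by TMM factors, library sizes did not overlap and were larger at 6 d.

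Hindwing chromatin differed between the labelled stages at 34.9% of tested intervals, and with TMM scaling more of them fell than rose. Accessibility was lower in the libraries labelled 6 d at 54072 intervals and higher at 36126 of 258640 (edgeR quasi-likelihood test, adjusted p under 0.05; 20.9% and 14.0% of those tested). Falling intervals had a median level of 1.48 CPM (read counts scaled to a common library size, adjusted by TMM factors) in the libraries labelled 6 d and 5.50 CPM in those labelled 72 h. Rising intervals had a median of 3.10 CPM at 6 d and 0.915 CPM at 72 h. With TMM scaling the median log2 change was -2.04 among falling intervals and 1.73 among rising ones. Among called intervals, 12710 fell at least 8-fold and 3249 rose at least 8-fold (4.91% and 1.26% of those tested), a balance that turned with library totals (7937 fell and 8093 rose) and with factors of the 2500 most open intervals (4434 fell and 37074 rose). The 3 libraries of one group did not overlap the 3 of the other at 47.9% of tested intervals.

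The balance between opening and closing depended on how libraries were scaled. TMM factors were 1.225 to 1.273 for the libraries labelled 6 d and 0.734 to 0.802 for those labelled 72 h. With library totals alone the balance turned, with 85253 intervals rising and 32399 falling, and the median of all intervals was 0.69 on the log2 scale, against 0.02 with TMM factors. With upper-quartile factors the counts were close, 47155 rising against 47529 falling. Factors taken from the 2500 most open intervals, chosen after seeing the data, gave 161609 rising and 12796 falling, with the median of all intervals at 1.73. Other scalings kept the balance near that of TMM. DESeq2 size factors gave 37113 rising and 53222 falling. Offsets fitted as a smooth curve of level, added after seeing the data, gave 38782 and 50692. Falling intervals were 59.9% of calls with TMM factors, 58.9% with DESeq2 size factors and 56.7% with offsets by level. They were 50.2% with upper-quartile factors, 27.5% with library totals and 7.34% with factors of the most open intervals. Directions below are relative to TMM scaling. The distribution of reads moved with the groups. The most covered 1% of intervals held 15.9% to 17.1% of counts in the libraries labelled 6 d and 30.1% to 32.3% in those labelled 72 h. Prepupa replicates 1 and 3, at 16.5% and 17.1%, resembled the libraries labelled 6 d, whereas prepupa replicate 2 had 27.6%. The part of this flatter distribution in the calls was not tested.

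Above 1 CPM the share of falling intervals climbed with level. Of 495 intervals with a mean above 100 CPM over the 6 libraries, 465 (93.9%) fell and 4 rose (median log2 change -2.13). Of 5174 intervals between 20 and 50 CPM, 71.0% fell and 6.30% rose. Between 1 and 2 CPM the shares were nearly equal, with 11.5% falling and 13.3% rising, and the median change was 0.20. Library totals use a single factor per library, which shifts all log2 changes nearly alike and so cannot remove a slope with level. Under them the median change was 1.07 for intervals up to 1 CPM and -1.44 for those above 100 CPM. Offsets fitted as a smooth curve of level, which remove such a slope by construction, brought the median of the class above 100 CPM to -0.01, with 31.1% of it falling and 29.7% rising. Factors of the 2500 most open intervals are again a common shift, and with them that class had a median of -0.40, with 58.4% falling and 15.2% rising.

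**Figure D1:**
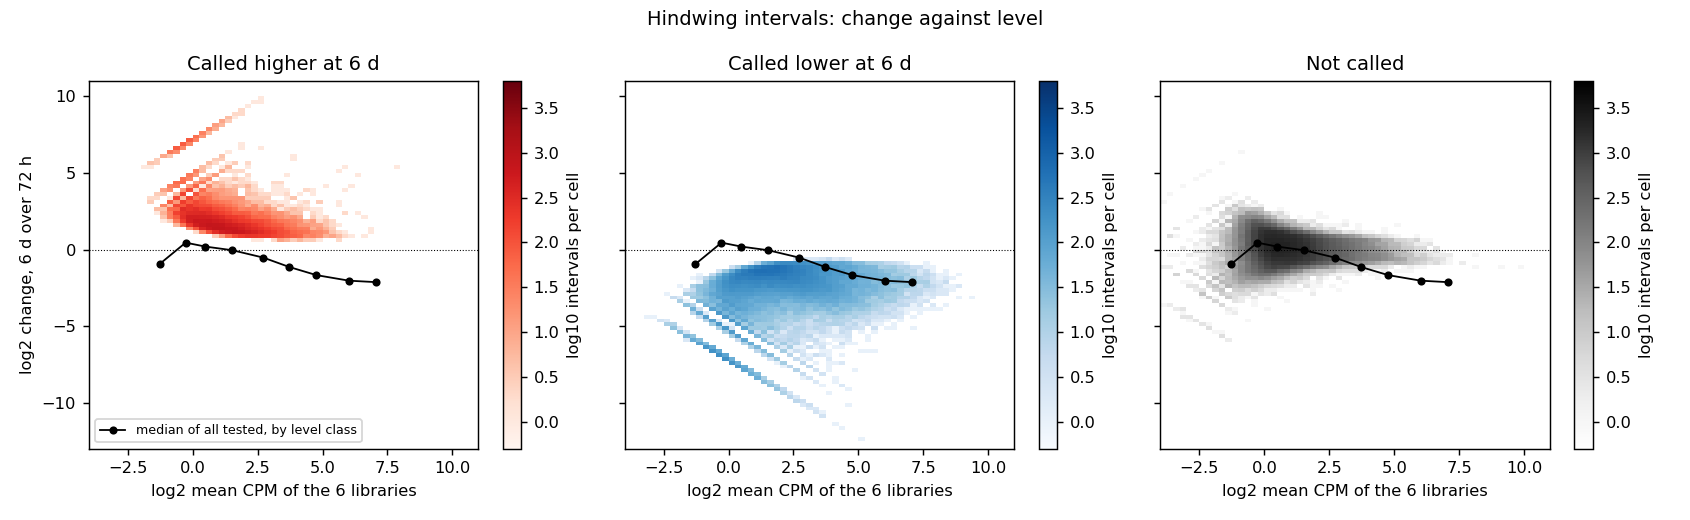
Log2 change of hindwing intervals (6 d over 72 h) against the log2 of the mean CPM of the 6 libraries, in panels for intervals called higher, called lower and not called; colour gives the log10 number of intervals per cell. The black line is the median of all tested intervals in each of 9 level classes and drops to -2.13 above 100 CPM; the diagonal streaks are intervals with no or few reads in a group.

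Of the 5 most open intervals by mean level, 3 were called falling and 2 were not called in the main fit of 12 hindwing libraries. Contig 000169F, 604310 to 606155, had 130.4, 153 and 129 CPM at 6 d, against 1431, 1111 and 1191 CPM at 72 h. It fell by 3.18 on the log2 scale (SE 0.47, edgeR, adjusted p = 3.39e-05). The 5217 bp interval of contig 000177F, 520115 to 525331, had 159, 170.3 and 139.8 CPM at 6 d and 902, 723 and 792 CPM at 72 h (log2 change -2.36, SE 0.42, edgeR, adjusted p = 0.00025). In both intervals every library labelled 6 d was below every library labelled 72 h. The widest interval of the table, 12581 bp on contig 000012F from 2585545, had 259.5 ± 26.3 CPM at 6 d and 755 ± 188 CPM at 72 h (SD, n = 3 each; log2 change -1.54, SE 0.40, edgeR, adjusted p = 0.00523).

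The most open interval of all, contig 000148F, 71204 to 71667, had 510.1, 511 and 718 CPM at 6 d and 1208, 1246 and 1196 CPM at 72 h. Its log2 change of -1.07 (SE 0.42) missed the threshold (edgeR, adjusted p = 0.0538). Contig 000072F, 1055131 to 1055553, also missed it, with 352 ± 107 CPM at 6 d and 726 ± 34.3 CPM at 72 h (log2 change -1.04, SE 0.42, edgeR, adjusted p = 0.0583). The groups did not overlap in either. In the fit of the 6 libraries alone both passed (edgeR, adjusted p = 5.71e-05 and 0.000521). Both also passed without the prepupa libraries (edgeR, adjusted p = 0.00149 and 0.00298) and without prepupa replicate 2 alone (0.000255 and 0.000916), the latter fit added after seeing the data. DESeq2 called both as well (Wald test, adjusted p = 0.00339 and 0.0108). With library totals or upper-quartile factors neither was called. Without the low-count filter both passed (edgeR, adjusted p = 0.0460 and 0.0477), and with replicate number as a block 000148F did (0.0431). The status of both intervals thus depended on libraries outside the comparison, on the test and on the filter, and that of 000148F also on the block. With offsets by level 4 of these 5 intervals changed sign (000148F to 2.24, 000072F to 2.02, 000012F to 1.24 and 000177F to 0.30), and 000169F was no longer called, at a log2 change of -0.30 (edgeR, adjusted p = 0.0597). With factors of the 2500 most open intervals 000148F, 000072F and 000012F were at 0.66, 0.69 and 0.20, so that their direction depends on the scaling.

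Wide intervals changed more often in both directions, and narrow ones mostly closed when they changed. Of 1094 tested intervals wider than 2000 bp, 30.8% rose and 30.4% fell. Of 34313 intervals of 101 to 150 bp, 5.38% rose and 15.3% fell. Wide intervals also hold more reads, with a median of 39.0 CPM above 2000 bp and 0.922 CPM in the 101 to 150 bp class, so that precision differs between width classes. Changes of 8-fold or more were rarer in wide intervals, at 0.548% rising and 0.914% falling above 2000 bp, against 1.59% and 7.25% at 101 to 150 bp.

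Large changes were most frequent in windows with few tested intervals. Windows were not adjusted for length where a contig ended, so that short contigs and contig ends count as sparse here. Of 893 contigs with tested intervals, 570 held at least 10. In windows of 100 kb with up to 10 tested intervals, 11.7% of intervals rose and 17.4% fell at least 8-fold. In windows with more than 100 tested intervals the shares were 0.569% and 2.62%. The median level also differed between these classes, at 1.26 CPM in the sparse and 2.43 CPM in the dense windows. By level, 1.28% rose and 3.66% fell at least 8-fold between 1 and 2 CPM, against 0.448% and 2.84% between 2 and 5 CPM. Density was not compared at equal level. Many of the 8-fold changes were at intervals without reads in some library. Leaving out intervals that lacked reads in at least 1 of the 12 hindwing libraries, an alternative added after seeing the data, left 317 rising and 4970 falling ones. Leaving out 72 h replicate 1, 2 or 3 gave 6292, 6394 and 7304 rising ones, and leaving out 6 d replicate 1, 2 or 3 gave 4092, 4208 and 4230. These fits let more intervals pass the filter, 283164 to 292176 against 258640, so that filter and replicate cannot be told apart in these counts.

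**Figure D2:**
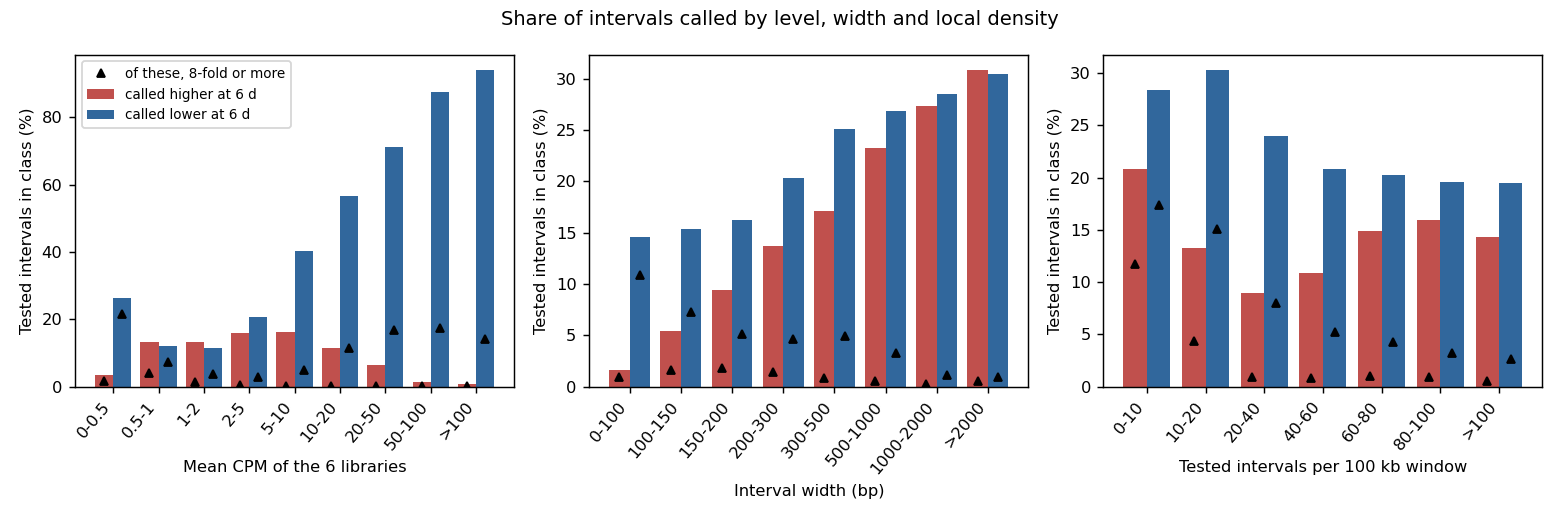
Share of tested hindwing intervals called higher (red) and lower (blue) at 6 d than at 72 h, by mean CPM, interval width and number of tested intervals in the 100 kb window; triangles give the shares changed at least 8-fold. Above 1 CPM the falling share climbs with level to 93.9%, both shares climb with width, and 8-fold changes concentrate in windows with few tested intervals, which include short contigs.

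Some sites had no counted read in the libraries labelled 6 d. At 160 tested intervals on 111 contigs no read was counted in the 3 libraries labelled 6 d, while the mean at 72 h was 5.06 to 72.4 CPM (median 7.20). These were 0.341% of the 46958 tested intervals with at least 5 CPM at 72 h. In the other hindwing groups the same intervals were open, with a 5th-instar median of 3.41 CPM and a prepupa median of 1.95 CPM, and none lacked reads in all 3 libraries of either group. Other tested intervals within 1 kb of them, 123 in number, had a median log2 change of -2.38, and 64.2% of these fell, against 20.9% of all tested intervals.

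Contig 000050F, 1567678 to 1568216, had the largest fall, with no read in the 3 libraries labelled 6 d and 77.1, 78.3 and 61.9 CPM at 72 h. This was at least 649-fold lower at 6 d (edgeR, adjusted p = 8.39e-08), taking 3 counts over the group as the limit that a count of 0 allows. Floors and counting intervals cover counting error only. It was open at the 5th instar (27.4, 45.2 and 44.3 CPM) and at prepupa (11.7, 37.3 and 13.1 CPM). Of the prepupa libraries, replicate 2 was the highest.

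Contig 000647F, 3849 to 4235, had no read at 6 d and 44.2, 36.7 and 33.0 CPM at 72 h, at least 342-fold lower at 6 d (edgeR, adjusted p = 8.95e-08). Contig 000066F, 1592438 to 1592848, had no read at 6 d and the tightest values of these at 72 h, 24.8 ± 0.771 CPM (SD, n = 3; at least 221-fold lower, edgeR, adjusted p = 9.36e-08). Contigs 000184F (196923 to 197263), 000072F (524840 to 525237), 000143F (4883 to 5314) and 000027F (1730705 to 1731202) had no read at 6 d either, with means of 25.6, 25.4, 22.7 and 21.9 CPM at 72 h. Each of these 4 was lower at the 5th instar than at 72 h by its mean.

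Contig 000180F, 194855 to 195257, differed within groups. It had no read at 6 d and 40.2, 69.6 and 19.7 CPM at 72 h (at least 383-fold lower at 6 d, edgeR, adjusted p = 5.27e-05). At the 5th instar replicates 1 and 2 had 24.2 and 34.9 CPM and replicate 3 had no read. The interval was thus also silent in a hindwing library of a group in which it was otherwise open. In the matched forewing interval the 5th-instar libraries had 49.8, 40.1 and 0.527 CPM for replicates 1, 2 and 3, so that replicate 3 was the lowest there as well.

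Other sites stayed detectable at 6 d but lost nearly all of their signal. Contig 000161F, 930535 to 931023, had 1.22, 0.914 and 2.41 CPM at 6 d, against 85.9, 81.9 and 96.2 CPM at 72 h (log2 change -5.87, SE 0.48, edgeR, adjusted p = 9.87e-08). The 5th-instar libraries (0.913 to 3.84 CPM) and the prepupa libraries (1.29 to 2.90 CPM) overlapped those labelled 6 d, so that 72 h was the high group of the 4. Contig 000380F, 41376 to 41760, had the same shape over the hindwing groups, with 1.02 ± 0.695 CPM at 6 d and 51.0 ± 18.0 CPM at 72 h (SD, n = 3 each; log2 change -5.67, SE 0.49, edgeR, adjusted p = 1.4e-07) and 1.47 to 4.20 CPM in the 5th-instar and prepupa libraries.

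Contig 000027F, 2438956 to 2439526, had 0.774, 2.44 and 2.16 CPM at 6 d and 88.0, 77.5 and 92.3 CPM at 72 h (log2 change -5.57, SE 0.46, edgeR, adjusted p = 1.02e-07). It was intermediate at the 5th instar, with 11.4 to 16.3 CPM. Contig 000140F, 359982 to 360437, had 1.22, 1.32 and 0.634 CPM at 6 d and 56.3, 18.4 and 79.2 CPM at 72 h (log2 change -5.56, SE 0.58, edgeR, adjusted p = 7.61e-07). Replicate 2 was the lowest of the libraries labelled 72 h and lay within the range of the 5th instar (11.1 to 18.9 CPM).

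Silent sites in the opposite direction were fewer. At 16 tested intervals no read was counted in the 3 libraries labelled 72 h while the mean at 6 d was at least 5 CPM, 0.0479% of the 33417 tested intervals with that level at 6 d. Their level at 6 d was at most 11.9 CPM, and their median width was 599.5 bp, against 292 bp for the 160 sites silent at 6 d. Among the hindwing prepupa libraries their medians were 1.57, 0.200 and 2.73 CPM for replicates 1, 2 and 3, again with replicate 2 apart. Of the 16, 4 also lacked reads in all 3 libraries of the 5th instar. Effective library sizes differed, so that the limit a count of 0 allows is 0.112 CPM at 6 d and 0.154 CPM at 72 h.

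Contig 000333F, 352803 to 353457, was the most even of the strongest openings, with 12.2, 10.3 and 9.64 CPM at 6 d and no read at 72 h (at least 69.4-fold higher, edgeR, adjusted p = 4.13e-06). Contig 000551F, 91452 to 92215, had 9.07, 5.38 and 6.85 CPM at 6 d and no read at 72 h or in the 3 libraries of the 5th instar (at least 45.7-fold higher than at 72 h, edgeR, adjusted p = 5.93e-05). Contig 000068F, 1444150 to 1445387, had 7.96, 13.1 and 14.0 CPM at 6 d and no read at 72 h (at least 75.2-fold higher, edgeR, adjusted p = 0.000432). These 3 intervals were open in each of the libraries labelled 6 d.

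The opening with the largest fitted change rested on part of its group. Contig 000126F, 508227 to 509291, had 18.6, 16.7 and 0.507 CPM at 6 d and no read at 72 h (at least 81.3-fold higher by the group sum, edgeR, adjusted p = 0.00123). Contig 000682F, 103692 to 104352, had 0.111, 14.9 and 11.3 CPM at 6 d and no read at 72 h (at least 57.3-fold higher, edgeR, adjusted p = 0.00146). In the first interval replicate 3, and in the second replicate 1, was nearly as low as the libraries labelled 72 h. Contigs 000056F (616662 to 617321), 000269F (151798 to 152573) and 000247F (550057 to 550599) had means of 7.84, 7.42 and 6.75 CPM at 6 d and no read at 72 h. In 7 of these 8 openings at least 1 library of the 5th instar held reads, and in 6 of them replicate 3 was the highest, as at 000682F with 5.80 CPM against 0.304 and 0.274 CPM in replicates 1 and 2.

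Other openings started from a detectable level at 72 h. The 3957 bp interval of contig 000926F, 11469 to 15425, had 492, 398 and 525 CPM at 6 d, against 18.0, 14.5 and 0.493 CPM at 72 h (log2 change 5.41, SE 0.81, edgeR, adjusted p = 3.77e-05). Its neighbour from 21182 to 22352 had 150.1, 126 and 183 CPM at 6 d and 5.78, 9.05 and 0.657 CPM at 72 h (log2 change 4.88, SE 0.78, edgeR, adjusted p = 8.17e-05). In both, replicate 3 was the lowest of the libraries labelled 72 h. Contig 000832F, 16151 to 16801, had 91.9 ± 23.8 CPM at 6 d and 2.75 ± 1.91 CPM at 72 h (SD, n = 3 each; log2 change 5.03, SE 0.60, edgeR, adjusted p = 3.62e-06). Contig 000073F, 1374293 to 1374652, had 32.3, 166 and 119 CPM at 6 d and 1.79, 1.81 and 3.61 CPM at 72 h (log2 change 5.46, SE 0.73, edgeR, adjusted p = 1.13e-05). In 000073F the libraries labelled 6 d spread widely, with replicate 1 the lowest. That the groups do not overlap in these openings was a condition for naming them. The treatment of reads that map to several sites was not stated.

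**Figure D3:**
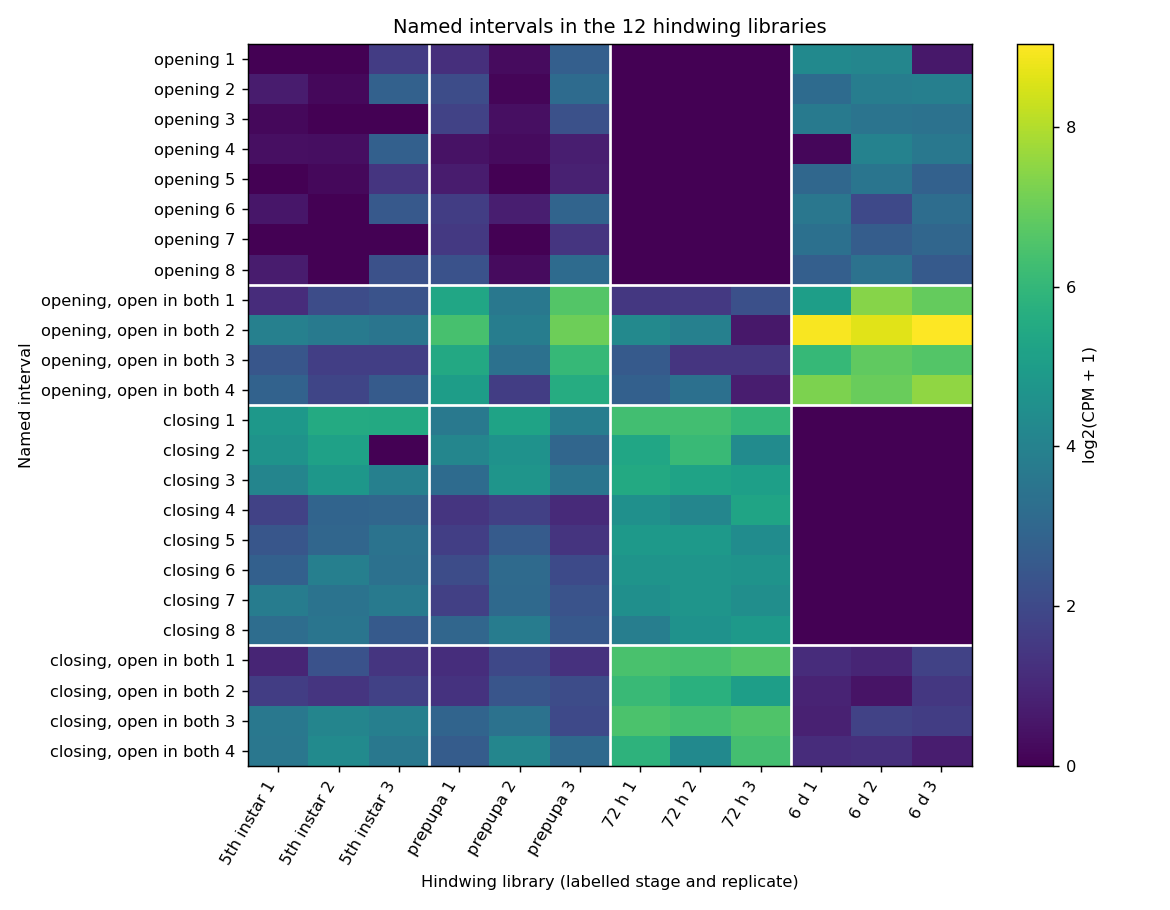
Log2(CPM + 1) of the 24 named openings and closings (rows, from the top: 8 openings and 4 openings with signal in both groups, then 8 closings and 4 closings with signal in both groups, in rank order) in the 12 hindwing libraries (columns). The first 8 closings have no reads in the libraries labelled 6 d, and the first 8 openings have none in those labelled 72 h.

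The other hindwing groups lay between the compared ones at called intervals. Falling intervals had library medians of 2.59 to 2.76 CPM (5th instar), 1.96 to 2.60 CPM (prepupa), 5.09 to 5.64 CPM at 72 h and 1.42 to 1.52 CPM at 6 d. Rising intervals had 1.51 to 1.67 CPM (5th instar), 1.80 to 2.24 CPM (prepupa), 0.826 to 0.987 CPM at 72 h and 3.04 to 3.15 CPM at 6 d. At intervals that were not called, library medians were 1.64 to 1.82 CPM throughout. The selection of extremes between 6 d and 72 h by itself places other groups in between, so that these medians are a description. Among the prepupa libraries, replicates 1 and 3 were nearer the libraries labelled 6 d than replicate 2 was, in both sets.

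**Figure D4:**
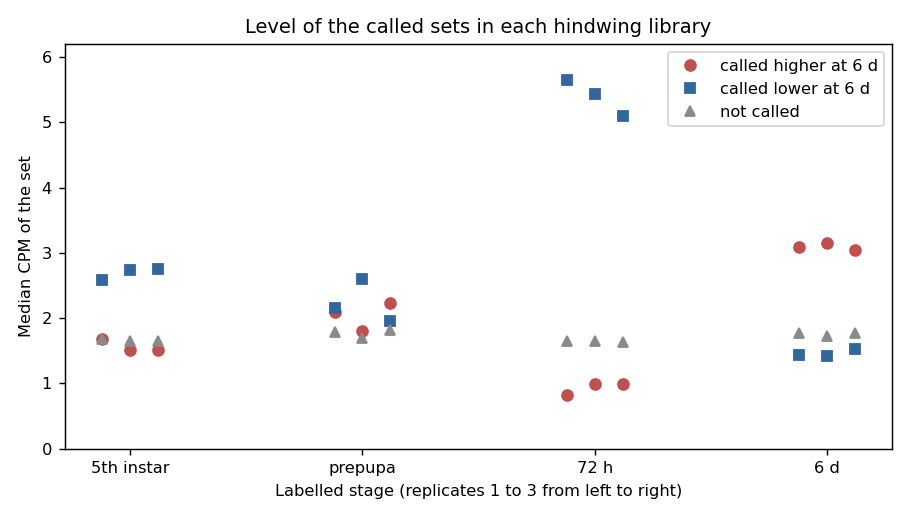
Median CPM of rising (red circles), falling (blue squares) and uncalled intervals (grey triangles) in each of the 12 hindwing libraries. Falling intervals peak at 72 h (5.09 to 5.64 CPM) and rising ones at 6 d (3.04 to 3.15 CPM), with the 5th instar and prepupa between.

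Neighbouring intervals moved together. Of 20840 pairs of successive tested intervals up to 500 bp apart and both called, 81.0% changed in the same direction. For 1455 called pairs more than 10 kb apart the share was 83.5%. A falling interval was followed within 500 bp by a falling one in 35.4% of cases and by a rising one in 8.06%, and a rising interval was followed by a rising one in 38.1% and by a falling one in 9.18%. The background over all tested intervals was 20.9% falling and 14.0% rising. Runs of at least 5 successive intervals called in one direction numbered 912 for falling and 628 for rising intervals. They held 10.9% of falling and 10.7% of rising intervals.

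The longest closing run lay on contig 000414F from 174882 to 325004, where 39 successive tested intervals fell over 150.1 kb with a median log2 change of -6.24. The summed signal of the intervals listed there was 4.31, 5.79 and 4.06 CPM at 6 d, against 200.4, 188 and 146 CPM at 72 h, 37.8-fold lower by the means. The domain was open in all other hindwing libraries, at 101 to 112 CPM at the 5th instar and 49.7 to 83.2 CPM at prepupa. Each of the 39 intervals fell by at least 2.48 on the log2 scale. All libraries labelled 6 d lay far below all others of the hindwing.

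The longest opening run lay on contig 000095F from 282566 to 688178, where 17 successive tested intervals rose over 406 kb (median log2 change 6.98). Its summed signal was 73.1, 81.0 and 59.5 CPM at 6 d, against 0.551, 0.329 and 0.328 CPM at 72 h, 177-fold higher by the means. It was nearly silent at the 5th instar as well (0.304, 1.10 and 0 CPM). At prepupa replicates 1 and 3 had 15.2 and 29.1 CPM and replicate 2 had 2.50 CPM. Tested intervals were sparse there, 4.19 per 100 kb, against 26.0 per 100 kb in the closing run.

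Some contigs changed over most of their tested intervals. Of 570 contigs with at least 10 tested intervals, 43 had more than 50% of their intervals falling and 22 had more than 50% rising, while the median contig had 21.0% falling and 11.8% rising. On contig 000847F 19 of 20 tested intervals fell (median log2 change -5.98), on 000548F 15 of 17 (-5.21) and on 000500F 52 of 65 (-2.94). None of the tested intervals of these 3 contigs rose. With factors of the 2500 most open intervals the share falling on 000500F was 43.1% (28 of 65). Contig 000847F had summed signals of 5.75, 3.45 and 5.46 CPM at 6 d, against 81.2, 81.8 and 72.1 CPM at 72 h. Contig 000500F had 49.3, 48.3 and 37.4 CPM at 6 d and 313, 291 and 231 CPM at 72 h. Contig 000548F was uneven, with 9.40, 10.8 and 11.4 CPM at 6 d and 37.4, 171 and 99.8 CPM at 72 h, although the groups did not overlap.

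On contig 000210F 23 of 24 tested intervals rose (median log2 change 6.42), on 000288F 16 of 17 (3.76) and on 000309F 8 of 10 (7.41). None fell. These contigs reach over 838, 556 and 439 kb from the first to the last listed interval and hold 2.28 to 3.06 tested intervals per 100 kb. Contig 000210F had summed signals of 118, 107 and 110.4 CPM at 6 d, against 6.33, 29.5 and 9.85 CPM at 72 h. Contig 000309F had 49.6, 41.6 and 35.6 CPM at 6 d and 0.688, 0.165 and 0.657 CPM at 72 h, 84.1-fold higher by the means.

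Contig 000288F had 107, 102 and 99.1 CPM at 6 d and 0.963, 31.4 and 1.48 CPM at 72 h, so that its level at 72 h came from replicate 2. The share of its intervals called rising was 94.1% (16 of 17) in the main fit. It was 40.7% (11 of 27) without 72 h replicate 1, 53.6% (15 of 28) without 72 h replicate 3 and 60.9% (14 of 23) without 6 d replicate 2. These fits also let more intervals of the contig pass the filter, so that the lower shares cannot be put down to the library alone. With DESeq2 the share was 58.8% (10 of 17).

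Levels on some of these contigs varied alike by replicate number in both wings. On 000288F the forewing libraries labelled 6 d had 0.697, 39.0 and 1.29 CPM for replicates 1, 2 and 3, with replicate 2 high as in the hindwing libraries labelled 72 h. On 000548F they had 48.0, 172 and 106 CPM, beside 37.4, 171 and 99.8 CPM in the hindwing libraries labelled 72 h. On 000309F the 5th-instar libraries had 26.0, 0.548 and 24.4 CPM in the hindwing and 38.6, 0.736 and 31.3 CPM in the forewing, so that replicate 2 was nearly silent in both wings. Each table has its own intervals and scaling factors, so levels across wings are set side by side without a test.

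**Figure D5:**
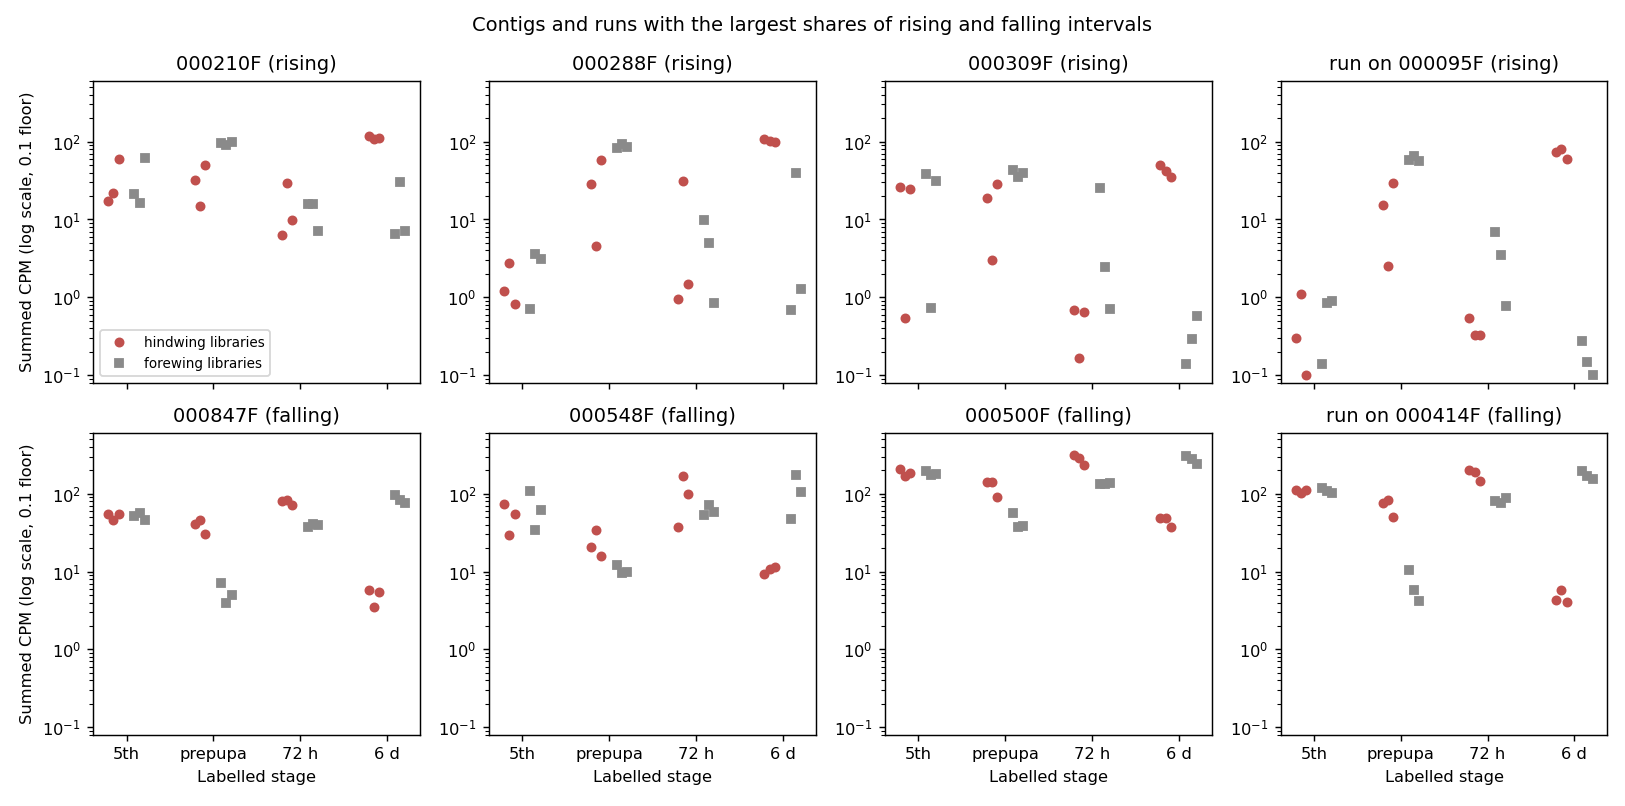
Summed CPM (log scale, values under 0.1 drawn at 0.1) of the contigs and runs with the largest shares of rising (top) and falling intervals (bottom), by labelled stage; red circles are hindwing and grey squares forewing libraries, replicates 1 to 3 from left to right. Hindwing libraries labelled 6 d sit with forewing libraries labelled prepupa, and hindwing libraries labelled 72 h with forewing libraries labelled 6 d.

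Among 3813 windows of 100 kb with at least 20 tested intervals, 150 had more than 50% of intervals falling and 48 more than 50% rising. In the window of 000414F from 200001 to 300000 all 28 tested intervals fell. On 000047F from 2300001 to 2400000, 21 of 23 fell (median log2 change -3.06), with summed signals of 12.6, 11.8 and 12.9 CPM at 6 d and 90.4, 79.6 and 68.8 CPM at 72 h. With factors of the 2500 most open intervals its share was 39.1% (9 of 23). On 000214F from 600001 to 700000, 66 of 98 intervals rose and 4 fell (median log2 change 1.83), with 559.6, 549.8 and 495 CPM at 6 d and 221, 219 and 242 CPM at 72 h. On 000128F up to 100000, 52 of 79 rose and 4 fell (1.55). On 000072F from 1900001 to 2000000, 25 of 34 rose (1.76). Tested against a 2-fold change, 30 of 98, 22 of 79 and 7 of 34 were called in these 3 windows. The share on 000072F fell to 35.1% (13 of 37) without 72 h replicate 1 and to 42.1% (16 of 38) without 72 h replicate 2. Both of these fits also tested more intervals than the 34 of the main fit.

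Set beside the forewing under the same stage names, the hindwing change ran differently at 53.4% of matched intervals. Of 127816 intervals matched between the tables, the difference between the hindwing and the forewing change from 72 h to 6 d was called at 68280, with 31497 higher and 36783 lower in the hindwing (edgeR interaction test, adjusted p under 0.05). With library totals the balance turned, with 52513 higher and 23466 lower, and the median of all differences was 0.96 on the log2 scale. In the forewing, contig 000161F, 930534 to 931018, was higher at 6 d than at 72 h, with a log2 change of 4.64 (SE 0.37) where the hindwing interval fell by 5.69 in the same fit, and the difference between the wings was -10.33 (SE 0.55, edgeR, adjusted p = 6.23e-14). Its forewing levels were 124, 131 and 142 CPM at 6 d and 4.13, 6.51 and 5.26 CPM at 72 h. The forewing interval at contig 000072F, 524844 to 525232, also rose (log2 change 3.01, SE 0.33, edgeR, adjusted p = 1.87e-07), while the hindwing interval had no read at 6 d. These tests rest on the stage names, which did not line up. Of the 129 matched sites silent in hindwings labelled 6 d, 35 (27.1%) had no read in the 3 forewing libraries labelled prepupa, and none lacked reads in all 3 libraries of any other forewing group. Over all matched tested intervals 0.605% had no read in the forewing libraries labelled prepupa. Of 13 matched sites silent in hindwings labelled 72 h, 11 had no read in the forewing libraries labelled 6 d, against 0.302% of all matched tested intervals.

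The filter and the threshold lie in a continuum of values. The tested interval with the lowest mean count, contig 000265F, 518633 to 518744, had 29 counts over the 3 libraries labelled 6 d and 1 count over those labelled 72 h, 21.0 times as much per scaled library (counting bounds 3.49 and 859.7 at 95%). The untested interval with the highest mean count, contig 000384F, 305392 to 305653, had 3, 3 and 0 counts at 6 d and 190, 0 and 1 counts at 72 h, and failed because few libraries held reads. The called interval nearest the threshold, contig 000066F, 1961005 to 1961263, had 1.90 ± 0.438 CPM at 6 d and 0.750 ± 0.527 CPM at 72 h. The uncalled one nearest it, contig 000061F, 212196 to 212602, had 1.65 ± 0.295 CPM at 6 d and 3.29 ± 1.64 CPM at 72 h (SD, n = 3 each). In the called interval the groups did not overlap, and in the uncalled one they did. The call of 000066F from 1961005 was lost in most alternatives. That of 000265F was lost with offsets by level (log2 change 1.69, edgeR, adjusted p = 0.450) and when tested against a 2-fold change (0.0525). It was also lost without 72 h replicate 1 (0.0741) or 72 h replicate 3 (0.0572). Contig 000061F was called without 72 h replicate 1 (edgeR, adjusted p = 0.0109), without the low-count filter (0.0486) and without prepupa replicate 2 (0.0439).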

How the data were processed

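Open chromatin was measured by ATAC-seq with Tn5 on nuclei of whole wing tissue, per the labels' protocols. The authors deposited raw read counts per interval, with one table and interval list per wing. Bowtie2 and deepTools were used, per the submitters' processing notes, without versions or roles. Not given in the sources used here: the genome build, peak caller, duplicate handling, transposase shift and pooling. Interval starts counted from 0 were converted to 1-based positions.

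Libraries were grouped by labelled tissue and stage. Since the labels name no separate animals, p-values cover the spread among these samples alone, and it may be technical. Replicates of a group differed by more than sampling noise. Between hindwing libraries labelled 6 d and 72 h, deviations correlated at 0.0155, 0.0122 and 0.0559 for equal replicate numbers 1, 2 and 3. For other numbers the correlations were -0.0323 to 0.0198. Replicate 3 correlated best with its own number, and replicates 1 and 2 did not. All these correlations were weak, and the hindwing libraries were treated as unpaired in the main fit. Across the wings each of these 6 libraries was closest to a forewing library of its own number, but at another stage name, and the wing test treats libraries as unpaired. The comparison, lists and rules were chosen with earlier results of these data known.

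Counts were tested with edgeR 4.0.16 (R 4.3.3) by its quasi-likelihood F test (TMM factors, filterByExpr with minimum count 10 and total 15, 12 hindwing libraries sharing the spread, Benjamini-Hochberg adjustment, called under 0.05). The wing difference used 24 libraries over best pairs of intervals with at least 80% reciprocal overlap. DESeq2 1.42.0 was an alternative. Each count test was also run on simulated data, in which a far smaller share of intervals was changed than was called here. That run therefore does not vouch for the calls. CPM are TMM-normalized. Folds against groups without reads use 3 counts over the group, and counting intervals are 95%.

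Named intervals were the 8 largest changes in each direction where the higher group had 5 CPM or more and the groups did not overlap, the 4 largest with at least 1 CPM in the lower group, the 5 most open, and those at the filter and the threshold. Contigs with at least 10 and windows of 100 kb with at least 20 tested intervals were ranked by their share of calls (3 per direction), and the longest run was taken per direction.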

Additional observations from a re-analysis of the deposited data

Results flagged for a closer look

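The change between the stages labelled 72 h and 6 d differed between hindwing and forewing at 68280 of 127816 matched intervals (edgeR interaction test, adjusted p under 0.05), which drew attention because the same contrast gave different effects in the wings. Across matched intervals the centred mean profile of the hindwings labelled 6 d had a Pearson r of 0.918 with forewings labelled prepupa and -0.533 with forewings labelled 6 d. That of hindwings labelled 72 h had 0.890 with forewings labelled 6 d and -0.319 with forewings labelled 72 h. Intervals are not independent replicates, and the part of the stage labels in the count was not tested.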

How the results depend on the processing

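Main counts were 90198 called of 258640 tested intervals (36126 rising, 54072 falling). For the wing difference they were 68280 of 127816 (31497 higher, 36783 lower in hindwing). The number of intervals tested changed with the filter, the libraries and the overlap, so that such counts are not shares of one total. Requiring at least 50 counts in 3 libraries gave 34385 of 55082 tested (15538 rising, 18847 falling). For the wings it gave 31733 of 45197 (15446 higher, 16287 lower). Testing against a 2-fold change gave 38042 (9405 rising, 28637 falling). No filter gave 83692 falling of 488675 tested. Library totals gave 85253 rising and 32399 falling and, for the wings, 52513 higher and 23466 lower. Factors of the 2500 most open intervals, added after seeing the data, gave 174405 (161609 rising, 12796 falling). A reciprocal overlap of 50% gave 108865 of 229117 tested (50758 higher, 58107 lower). One of 95% gave 19761 of 30177 (9291 higher, 10470 lower). Leaving out single replicates of the compared groups gave 74704 to 88046 calls (26197 to 33120 rising, 48507 to 54926 falling). These fits let more intervals pass the filter, 283164 to 292176. For the wings the counts were 64136 to 67872 (28816 to 31772 higher, 34737 to 36205 lower), with 130776 to 131140 tested. Without prepupa replicate 2, an alternative added after seeing the data, 103183 of 289536 tested were called (41048 rising, 62135 falling). The replicate block gave 86636 (34080 rising, 52556 falling). Deviations of replicate 1 at 6 d correlated best with replicate 2 at 72 h (0.0198), and those of replicate 3 with its own number (0.0559). For the wings a replicate block within each wing gave 66376, and no fit paired libraries across the wings. DESeq2 called 85764 of 258640 and the 6 libraries alone 79970 of 194870 tested.

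Signs turned with offsets by level for log2 changes of 000012F (1.24), 000072F from 1055131 (2.02), 000148F (2.24) and 000177F (0.30), and with factors of the 2500 most open intervals for 000012F (0.20), 000072F (0.69) and 000148F (0.66). Wing differences of the log2 change turned with offsets by level for 000072F (2.19) and 000148F (2.21). The cause was not tested. The median interval held 7 counts per library, which limits weakly covered intervals.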
